A study of Mus musculus with 23 samples.

Results

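The products of 10 genes mark plasma cells or are targets of drugs and engineered cells used against multiple myeloma, a cancer of plasma cells. The genes are Sdc1, Tnfrsf17, Tnfrsf13b, Tnfrsf13c, Slamf7, Cd38, Gprc5d, Fcrl5, Cd27 and Igj, and all 10 were found by symbol among the 24063 gene symbols of each deposited table. The series has 23 mouse RNA-seq libraries, all from cells sorted for the plasma cell phenotype CD138+ B220-. The tumour lines named VQ, which are VQ-D1 and VQ-D2 as well as VQ-D4 and VQ-D5, 4 in all, carry Vκ*MYC, an NrasLSL Q61R/+ allele and IgG1-Cre, the line t-VK12653 carries Vκ*MYC without the other alleles, and the Control libraries come from mice with IgG1-Cre, so that Control and VQ cells share the Cre. Each line is 1 donor transplanted into recipients and has 4 libraries: VQ-D1 and t-VK12653 have 2 from bone marrow and 2 from spleen, VQ-D2 has 2 from spleen and 2 from lymph node, VQ-D5 has 2 from bone marrow and 2 from lymph node, and VQ-D4 has 1 from liver and 1 each from spleen, lymph node and bone marrow. The 3 Control libraries are all from bone marrow, and nothing in the labels says that these mice received a transplant. The labels call the sorted cells of all 23 libraries MM cells, those of the Control mice included.

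Vκ*MYC is a MYC transgene driven by kappa light chain elements that is switched on in germinal centre B cells, and IgG1-Cre is active in B cells that switch to IgG1. In an LSL allele a stop cassette keeps the gene silent until Cre removes it. Since a line is 1 donor, n = 4 counts libraries of that donor, and p-values between lines measure the spread between such libraries. Spread between donors of a genotype enters only where counts were summed per line.

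Plasma cells are the antibody-secreting end stage of the B cell lineage. Their survival in bone marrow depends on the cytokines BAFF and APRIL, which are read by a small family of receptors: BCMA (encoded by Tnfrsf17) and TACI (Tnfrsf13b) bind APRIL and, less tightly for BCMA, BAFF, while the BAFF receptor (Tnfrsf13c) binds BAFF alone and serves naive B cells. CD138 (Sdc1), SLAMF7, CD38, GPRC5D and FCRL5 are surface proteins used to find or to attack human myeloma cells, CD27 is a costimulatory receptor, and Igj encodes the J chain that joins IgM and IgA into polymers.

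The upstream sequences of Tnfrsf17, Tnfrsf13b and Igj are shown first, since their order across the lines is what the results turn on. Each is the 250 bases before the RefSeq start, read 5′ to 3′ on the gene's strand, from RefSeq with the build GRCm38.p6. They lie at chr16:11313559-11313808 on the plus strand for Tnfrsf17, chr11:61126505-61126754 on the plus strand for Tnfrsf13b and chr5:88527898-88528147 on the minus strand for Igj. Capitals mark a match, on either strand, to a pattern bound by interferon regulatory factors, GAAA followed by any 2 bases and a second GAAA.
Tnfrsf17: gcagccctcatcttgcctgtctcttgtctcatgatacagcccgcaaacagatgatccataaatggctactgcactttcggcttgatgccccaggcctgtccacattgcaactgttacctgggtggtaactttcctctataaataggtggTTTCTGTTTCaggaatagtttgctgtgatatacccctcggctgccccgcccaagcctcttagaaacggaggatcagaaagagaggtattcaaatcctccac
Tnfrsf13b: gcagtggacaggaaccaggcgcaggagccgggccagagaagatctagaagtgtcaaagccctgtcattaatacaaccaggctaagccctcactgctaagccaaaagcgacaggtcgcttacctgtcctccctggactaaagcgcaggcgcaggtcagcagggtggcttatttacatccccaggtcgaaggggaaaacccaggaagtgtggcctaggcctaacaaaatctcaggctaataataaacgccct
Igj: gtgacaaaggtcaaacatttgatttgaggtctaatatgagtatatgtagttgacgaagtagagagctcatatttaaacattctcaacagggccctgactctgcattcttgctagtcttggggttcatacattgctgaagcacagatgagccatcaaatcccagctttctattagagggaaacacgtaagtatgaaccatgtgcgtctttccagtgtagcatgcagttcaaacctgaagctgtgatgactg

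The same windows of all 10 genes were searched on both strands for CACGTG, the E-box that MYC binds, for ATGCAAAT, the octamer of immunoglobulin promoters, and for the spaced GAAA pair. The 1 match of any of the 3 patterns among the 10 windows, with which nothing else could overlap, was TTTCTGTTTC in Tnfrsf17, which begins 101 bases before the start (position -101). Of 32851 RefSeq windows of this length, 6.02% hold CACGTG, 1.6% ATGCAAAT and 2.98% the spaced GAAA pair. A match is a description of the letters, and no match says only that the letters are not in that window.

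In GRCm38 (GENCODE vM21), Sdc1 lies on chromosome 12 from 8771323 to 8793715 on the plus strand, Tnfrsf17 on chromosome 16 from 11313812 to 11320074 on the plus strand and Tnfrsf13b on chromosome 11 from 61126755 to 61149372 on the plus strand. Tnfrsf13c lies on chromosome 15 from 82221743 to 82224369 and Slamf7 on chromosome 1 from 171632403 to 171653035, both on the minus strand. Cd38 lies on chromosome 5 from 43868553 to 43912375 on the plus strand, and Igj, annotated there under its current symbol Jchain, on the same chromosome from 88519809 to 88527891 on the minus strand. Gprc5d lies on chromosome 6 from 135105991 to 135118283 on the minus strand, Cd27 on the same chromosome from 125232622 to 125237010 on the minus strand, and Fcrl5 on chromosome 3 from 87435773 to 87500678 on the plus strand. Cd27 overlaps the protein-coding gene Vamp1 on the opposite strand, Tnfrsf13b the processed pseudogene Gm12269, Slamf7 the antisense gene Gm37787, and Cd38 the genes Gm16014 and Gm16015. No source used here states whether counting used strand, so reads of such pairs may not be separated.

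Total counts ran from 2685579 to 10047314 per library with a median of 4626666. Myc, the mouse gene of the oncogene in the transgene, was at 592 ± 77.5, 3478 ± 63.7, 1375 ± 204, 1163 ± 105 and 6542 ± 252 CPM in VQ-D1 and VQ-D2, VQ-D4 and VQ-D5, and t-VK12653 (in that order; SD, n = 4 libraries each), against 43.1 ± 14.3 CPM in Control (SD, n = 3). Nras was at 42.3 ± 4.59, 87.4 ± 9.17, 51.1 ± 1.96, 124 ± 12.1 and 43.5 ± 5.27 CPM in the same lines, against 32.3 ± 0.819 CPM in Control. CPM are counts scaled to the depth of the library, here after TMM scaling, which corrects for differences in composition. The summed level of 13 neutrophil markers, which mature plasma cells lack, lay at 21.6 to 1182 CPM in VQ-D1, with VQ-D1 replicate 1 highest, at 4.32 to 150 CPM in the other 4 lines, and at 3178 to 8877 CPM in Control. The liver library, VQ-D4 replicate 2, held 33.3 CPM of 5 liver markers, against 0 to 4.77 CPM in the other 22 libraries. Left out together, a choice made after seeing the data, these 2 libraries changed none of the numbers called among the 9 tested genes against Control. Over all genes, 3299 were then called in the line sums of VQ against Control, against 3192 with them. In the fits of single lines given below, tissue is a term and the liver library is the only one of its tissue. Leaving that library out could therefore hardly change the calls of those fits.

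**Figure D1:**
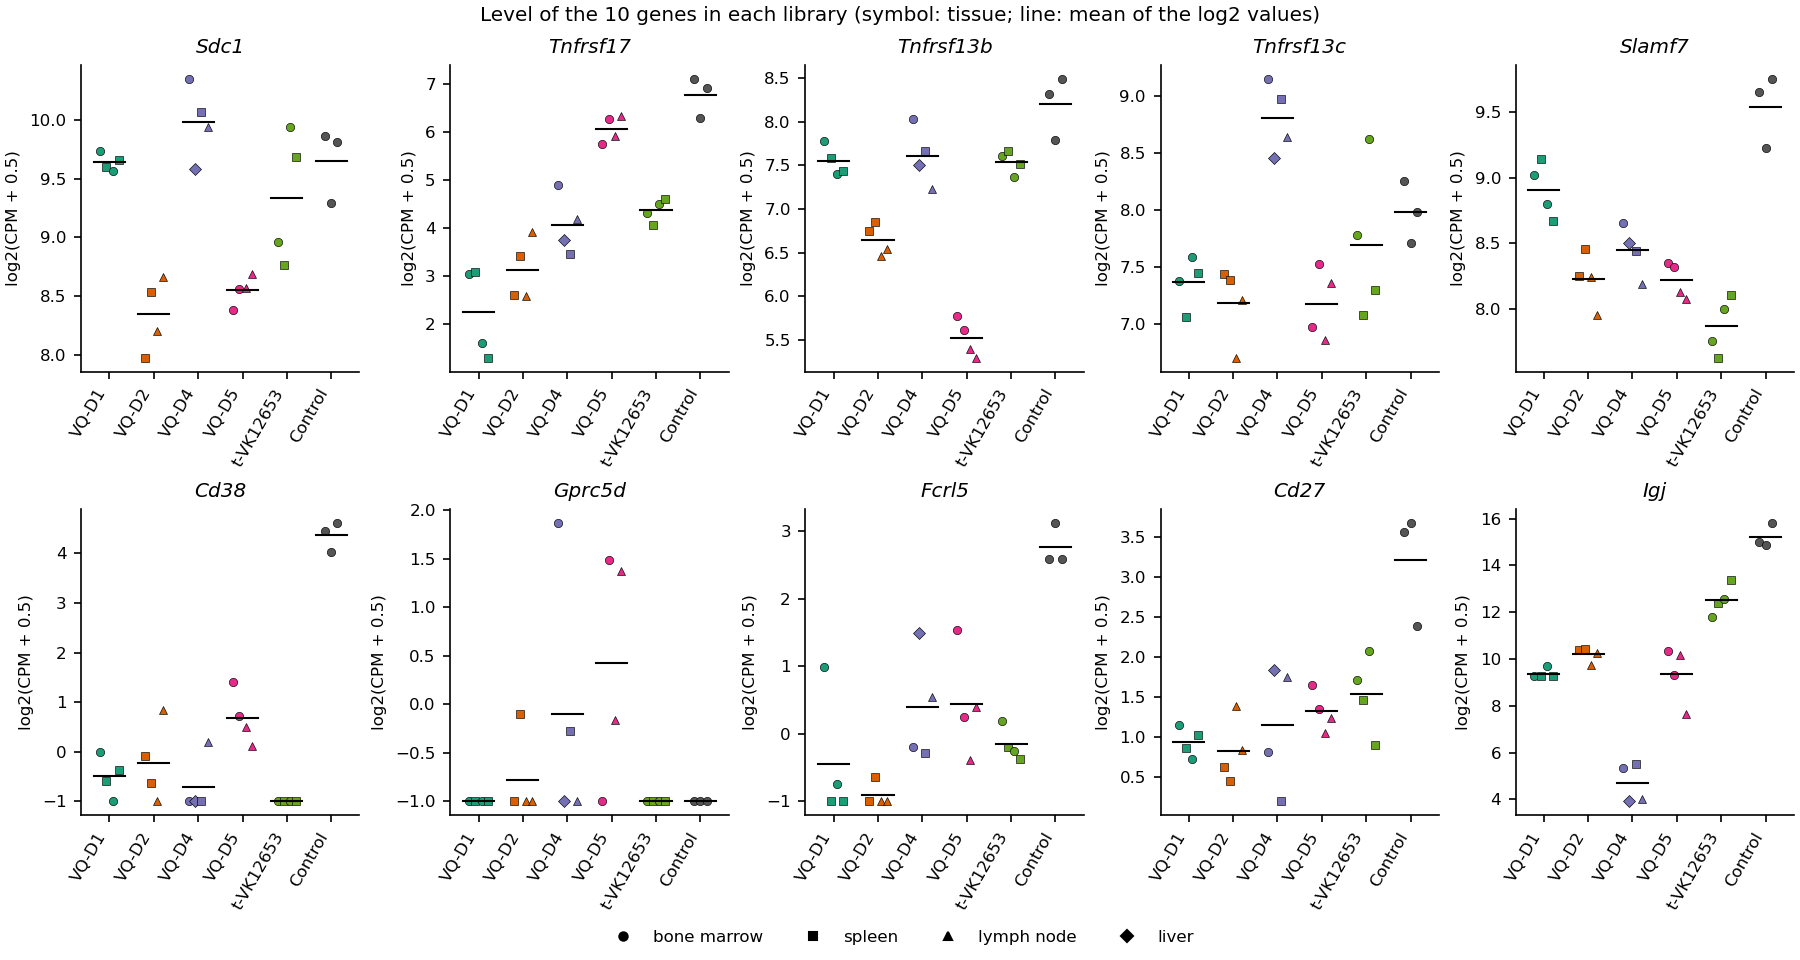
Level of each of the 10 genes in every library, as log2(CPM + 0.5) on the y axis of its own panel, by group on the x axis. Points are libraries, symbols give the tissue and the black line is the mean of the log2 values. For Slamf7, Cd38, Fcrl5, Cd27 and Igj, every Control point lies above every point of the 5 lines.

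In the comparison of the 4 VQ lines with Control, counts were summed per line and the 4 line sums were set against the 3 Control libraries. The sums pool the tissues of each line, so this comparison has no term for tissue, while Control is bone marrow alone. Of the 10 genes, 9 passed the filter on low counts and were tested. Among these 9, 5 were lower and none was higher at an adjusted p under 0.05 by edgeR's quasi-likelihood test, where 23% of 13870 tested genes were called, 13.7% higher and 9.27% lower. Igj fell by 5.73 on the log2 scale (adjusted p = 0.0117, SE 1.08), Cd38 by 5.35 (adjusted p = 0.00622, SE 0.80), Fcrl5 by 3.37 (adjusted p = 0.036, SE 0.91), Cd27 by 2.38 (adjusted p = 0.014, SE 0.48) and Slamf7 by 0.93 (adjusted p = 0.0253, SE 0.23). The log2 fold change was -1.995 (adjusted p = 0.131, SE 0.86) for Tnfrsf17, -1.02 (adjusted p = 0.165, SE 0.48) for Tnfrsf13b, -0.23 (adjusted p = 0.727, SE 0.41) for Sdc1 and -0.0027 (adjusted p = 0.997, SE 0.43) for Tnfrsf13c, and none of these 4 passed. The median log2 fold change was -1.995 over the 9 genes and 0.19 over all genes tested. Cd38, Fcrl5 and Cd27 passed the filter on low counts mainly through Control, so neither this count nor this median supports a statement about the genes as a set. Without Control replicate 1, 2 of the 5 calls were left (Cd38 and Igj), and without Control replicate 2 or 3 there were 3.

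Each line was then compared with Control in 1 fit of all 23 libraries with terms for group and tissue. All 5 comparisons share the 3 Control libraries. Control is bone marrow alone and VQ-D2 has no such library. The comparison of VQ-D2 therefore rests on differences between tissues that were estimated in other lines. In VQ-D1, 7 of 9 genes were lower, where 59.4% of 12867 tested genes were called, 29.7% in each direction. In VQ-D2, 8 of 9 were lower (57.5% of genes called, 29.6% higher and 27.8% lower). In VQ-D4, 1 of 9 was higher and 7 were lower (54.3% called, 27.5% higher and 26.9% lower). In VQ-D5, 7 of 9 were lower (63.8% called, 31.2% higher and 32.5% lower), and in t-VK12653 likewise 7 of 9 (56.9% called, 28.8% higher and 28.1% lower). The median log2 fold change of the 9 genes was -2.42 in VQ-D1 and -2.66 in VQ-D2. It was -2.41 in VQ-D4 and -2.25 in VQ-D5, and -1.67 in t-VK12653, against -0.045 to 0.024 over all genes tested. The limit given above for Cd38, Fcrl5 and Cd27 holds for these counts and medians too, and some of the medians are the values of Cd27 or Fcrl5 themselves, so they are a description only.

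**Figure D2:**
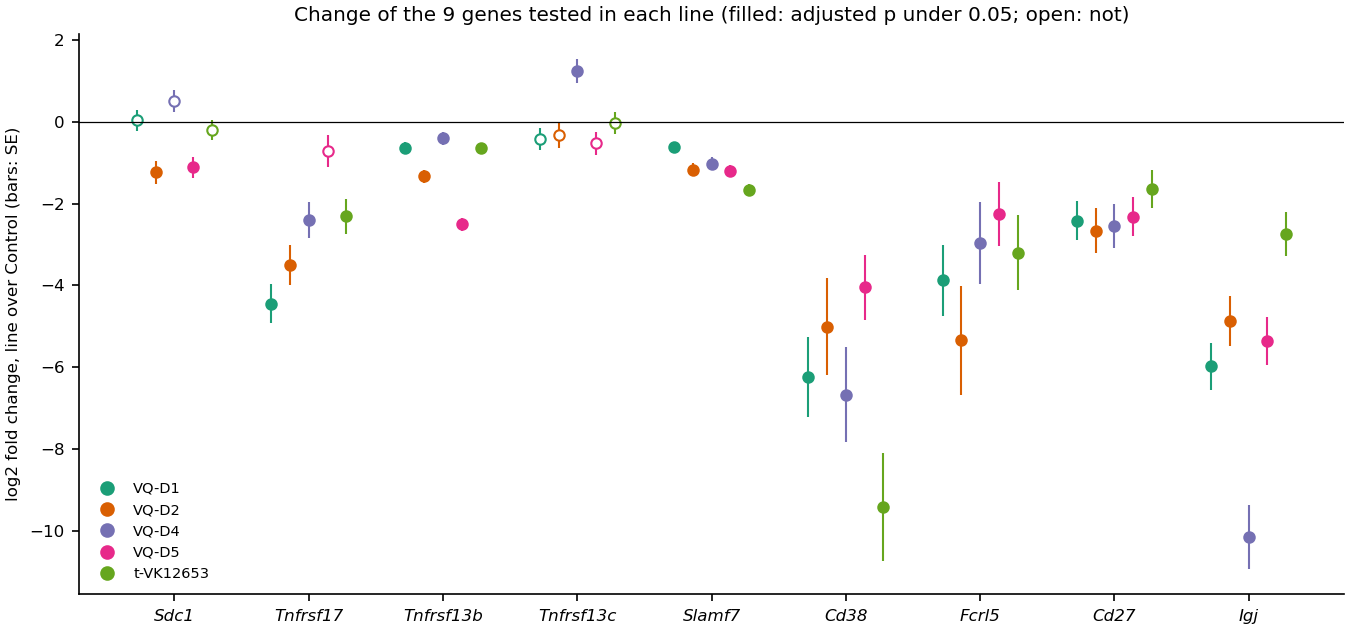
Log2 fold change of each line over Control for the 9 genes tested, by gene on the x axis, with bars for the SE. Filled points have an adjusted p under 0.05, and the 1 filled point above 0 is Tnfrsf13c in VQ-D4, at 1.23.

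BCMA, the receptor that long-lived plasma cells need, varied between the lines by a larger ratio of highest to lowest mean level than the other APRIL receptor, TACI. Tnfrsf17 measured 7.65, 7.91, 2.51 and 1.95 CPM in VQ-D1 replicates 1 to 4 and 5.52, 10.1, 5.43 and 14.5 CPM in VQ-D2. It measured 29.0, 12.8, 10.4 and 17.6 CPM in VQ-D4 and 53.2, 76.4, 59.3 and 80.2 CPM in VQ-D5. It measured 19.1, 16.2, 22.1 and 23.9 CPM in t-VK12653, against 136, 77.8 and 120.1 CPM in Control. VQ-D5 alone among the lines overlapped Control, and its libraries lay above every library of the other 4 lines. The log2 fold change over Control was -4.45 (adjusted p = 4.74e-07, SE 0.47) in VQ-D1, -3.51 (adjusted p = 1.26e-05, SE 0.49) in VQ-D2, -2.41 (adjusted p = 0.000229, SE 0.44) in VQ-D4 and -2.31 (adjusted p = 0.000192, SE 0.42) in t-VK12653. In VQ-D5 it was -0.72 (adjusted p = 0.129, SE 0.40) and did not pass, although it did with no filter on low counts (-0.60, adjusted p = 0.00305). The 5 lines differed from each other (adjusted p = 5.99e-06, F-test over the lines), and from the top the order of the means was Control, VQ-D5, t-VK12653, VQ-D4, VQ-D2 and VQ-D1, in which VQ-D5 and t-VK12653 were the 1 pair of neighbours whose libraries did not overlap. The comparison of line sums passed when VQ-D5 was left out (log2 fold change -3.31, adjusted p = 0.0156) and by DESeq2 (-2.09, adjusted p = 0.0462).

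TACI had a different order. Tnfrsf13b measured 219, 192, 168 and 173 CPM in VQ-D1 replicates 1 to 4 and 107, 115, 87.3 and 92.8 CPM in VQ-D2. It measured 261, 182, 203 and 149 CPM in VQ-D4 and 53.9, 48.4, 41.5 and 38.7 CPM in VQ-D5. It measured 194, 203, 165 and 182 CPM in t-VK12653, against 320, 221 and 359 CPM in Control. VQ-D5 was lowest and VQ-D2 next, and neither overlapped any other group. Tnfrsf13b fell by 2.51 on the log2 scale in VQ-D5 (adjusted p = 9.37e-12, SE 0.16), by 1.33 in VQ-D2 (adjusted p = 6.02e-07, SE 0.17), by 0.65 in t-VK12653 (adjusted p = 0.000574, SE 0.14) and by 0.64 in VQ-D1 (adjusted p = 0.000585, SE 0.14). In VQ-D4 the log2 fold change was -0.41 (adjusted p = 0.0307, SE 0.16), a call that was lost when Control replicate 1 (adjusted p = 0.106), Control replicate 3 (adjusted p = 0.237), VQ-D4 replicate 3 (adjusted p = 0.0761) or VQ-D4 replicate 4 (adjusted p = 0.0849) was left out. It was also lost in bone marrow libraries only (-0.19, adjusted p = 0.574) and with no filter on low counts (-0.34, adjusted p = 0.0599). The lines differed from each other (adjusted p = 1.63e-10).

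Set side by side per length, on the scale of the deposited TPM, the level of Tnfrsf13b divided by that of Tnfrsf17 was 26.3 to 96.0 in VQ-D1 and 6.95 to 21.0 in VQ-D2. It was 9.19 to 21.1 in VQ-D4 and 0.522 to 1.10 in VQ-D5, and 8.08 to 13.6 in t-VK12653, against 2.55 to 3.24 in Control. The VQ-D5 libraries lay below all Control libraries and those of the other 4 lines lay above them. The ratio was chosen after the values were seen and is given without a test.

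**Figure D3:**
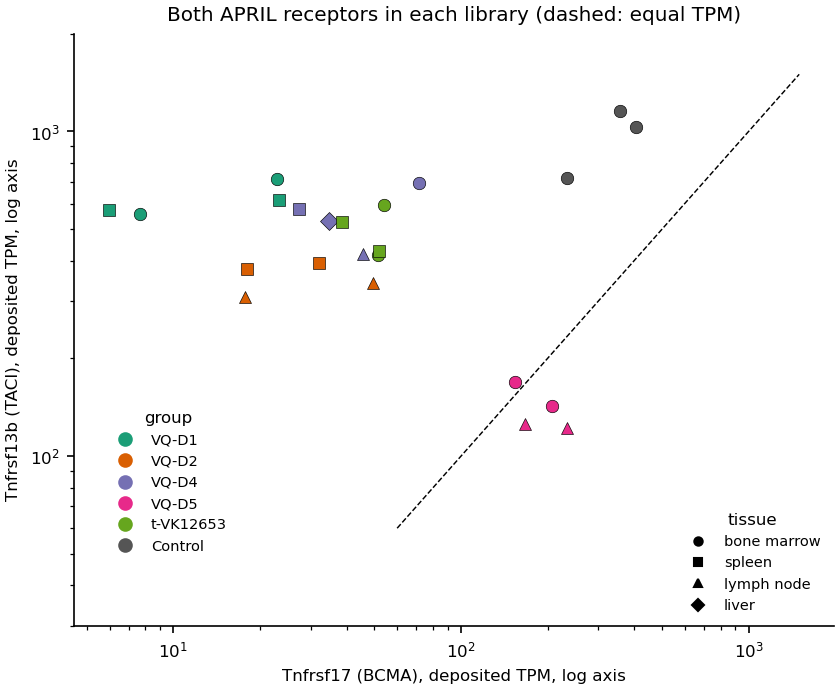
Deposited TPM of Tnfrsf13b (y, log axis) against that of Tnfrsf17 (x, log axis) in each of the 23 libraries. Colours give the group, symbols the tissue and the dashed line equal TPM. Of the VQ-D5 libraries, replicate 1 lies just above the dashed line and the other 3 below it, at ratios of 0.522 to 1.10, and all libraries of the other groups lie further above it.

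The BAFF receptor, which signals for survival in naive B cells, was higher than Control in VQ-D4. Tnfrsf13c measured 166, 148 and 147 CPM on average in VQ-D1, VQ-D2 and VQ-D5 (SD 24.7, 31.3 and 31.8, n = 4 each). It measured 566, 351, 502 and 399 CPM in VQ-D4 and 219, 134, 394 and 157 CPM in t-VK12653, against 305, 209 and 252 CPM in Control. Every VQ-D4 library lay above every Control library, while t-VK12653 spanned the Control range on both sides. Every library of VQ-D1, VQ-D2 and VQ-D5 lay below every Control library, with highest values of 192, 173 and 183 CPM. The log2 fold change was 1.23 in VQ-D4 (adjusted p = 0.00209, SE 0.30), -0.42 in VQ-D1 (adjusted p = 0.2, SE 0.27), -0.33 in VQ-D2 (adjusted p = 0.377, SE 0.31), -0.52 in VQ-D5 (adjusted p = 0.12, SE 0.29) and -0.04 in t-VK12653 (adjusted p = 0.921, SE 0.27). In VQ-D5 the value passed by DESeq2 (-0.61, adjusted p = 0.0342) and with no tissue term (-0.80, adjusted p = 0.0193). It also passed there in bone marrow libraries only (-0.72, adjusted p = 0.0449) and with counts summed per recipient (-0.77, adjusted p = 0.0162). With no filter on low counts it passed in VQ-D5 (-0.41, adjusted p = 0.00976) and in VQ-D1 (-0.33, adjusted p = 0.0423). In VQ-D2 it passed with no tissue term (-0.79, adjusted p = 0.0213) and with counts summed per recipient (-0.70, adjusted p = 0.0259). The other alternatives of these lines did not pass. The difference among the lines passed (adjusted p = 1.37e-05).

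Of the other genes of BAFF and APRIL signalling, 7 of 15 were lower and none was higher in the line sums. Their median log2 fold change was -1.40. Over all genes tested in the line sums, 9.27% were lower and 13.7% higher, and these shares apply to the other list counts below. In the fits of single lines, 14 genes of this list were tested. In VQ-D1 2 were higher and 9 lower, in VQ-D4 2 and 11, and in t-VK12653 2 and 6. None was higher in VQ-D2 and VQ-D5, where 10 and 11 were lower. The all-gene shares of these fits are given above. In the line sums Tnfsf13, which encodes APRIL, fell by 2.70 on the log2 scale (adjusted p = 0.0302, SE 0.69). Tnfsf13b, which encodes BAFF, fell by 2.40 there (adjusted p = 0.0308, SE 0.62). Both ligands are made by myeloid cells, and the neutrophil markers given above differ in the same direction. The summed monocyte and macrophage markers were lower than Control in VQ-D2 (72.9 to 342 CPM) and VQ-D5 (17.8 to 41.1). They overlapped Control (513 to 1564 CPM) in VQ-D1 (579 to 834), VQ-D4 (565 to 1490) and t-VK12653 (778 to 1416). The sums do not describe most single markers in these lines. Of 11 tested markers, 7 were lower and 1 higher in VQ-D1, 7 and 2 in VQ-D4, and 8 and 2 in t-VK12653. The median log2 fold changes of the markers were -2.35, -5.11 and -4.53. Over all genes 29.7%, 26.9% and 28.1% were lower in these fits. The part of myeloid cells in the 2 ligand changes was not tested. Nfkb2, the NF-κB subunit processed when these receptors signal, was at 65.0 ± 12.7, 21.7 ± 4.36, 13.7 ± 5.70, 9.77 ± 2.24 and 130 ± 54.1 CPM in VQ-D1 and VQ-D2, VQ-D4 and VQ-D5, and t-VK12653, against 145 ± 21.4 CPM in Control, and fell by 2.31 in the line sums (adjusted p = 0.0344, SE 0.62). Map3k14 encodes the kinase NIK, which starts that processing; it was picked out after its values were seen. It was at 532 ± 70.6 CPM in t-VK12653 and at means of 6.26 to 8.07 CPM in the 4 VQ lines, against 25.6 ± 6.23 CPM in Control. For t-VK12653 over Control its log2 fold change was 4.28 (adjusted p = 2.08e-14, SE 0.17), and in each VQ line it was lower than Control (log2 fold changes from -2.27 to -1.81, adjusted p from 3.19e-08 to 7.96e-08). Gamma-secretase, which sheds BCMA from the cell surface, had 0 of 7 subunit genes called in the line sums by edgeR, with 2 at an unadjusted p under 0.05 and 2 called by DESeq2. Ncstn, which encodes its subunit nicastrin, had a log2 fold change of 1.16 (adjusted p = 0.0594, SE 0.37). In the fits of single lines, 2 of the 7 subunit genes were called in each line, where 54.3% to 63.8% of all genes were called. Both were higher in VQ-D2, VQ-D4 and VQ-D5, and 1 was higher and 1 lower in VQ-D1 and in t-VK12653.

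Sdc1 encodes CD138, the heparan sulphate proteoglycan on which the cells were sorted, so its level is not independent of the gate. It measured 854, 774, 755 and 808 CPM in VQ-D1 replicates 1 to 4 and 252, 372, 294 and 406 CPM in VQ-D2. It measured 1300.2, 767, 1072 and 980 CPM in VQ-D4 and 333, 376, 379 and 413 CPM in VQ-D5. It measured 497, 435, 983 and 821 CPM in t-VK12653, against 928, 627 and 895 CPM in Control. VQ-D2 and VQ-D5 lay below every library of the other 4 groups. Sdc1 fell by 1.23 on the log2 scale in VQ-D2 (adjusted p = 0.00126, SE 0.28) and by 1.11 in VQ-D5 (adjusted p = 0.00118, SE 0.26), while the log2 fold change was 0.04 in VQ-D1, 0.50 in VQ-D4 and -0.19 in t-VK12653, with adjusted p of 0.916, 0.123 and 0.528. With no filter on low counts, Sdc1 passed in VQ-D4 (log2 fold change 0.57, adjusted p = 8.01e-05). The lines differed from each other (adjusted p = 1.06e-05). Of 11 tested genes of the syndecan family and of heparan sulphate synthesis, 2 were higher and none was lower in the line sums, with a median log2 fold change of 0.91. Ext2, which polymerises heparan sulphate, rose by 1.41 (adjusted p = 0.00766, SE 0.23), and Ndst1, which sulphates it, rose by 1.02 (adjusted p = 0.0325, SE 0.27). In the fits of single lines, 5 of these 11 genes were higher and 4 lower in VQ-D1, and 7 and 2 in VQ-D2. In VQ-D4 4 were higher and 3 lower, in VQ-D5 5 and 1, and in t-VK12653 2 and 5. The all-gene shares of these fits are given above.

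SLAMF7, the target of elotuzumab in human myeloma, was lower than Control in all 5 lines. Slamf7 measured 518, 565, 445 and 406 CPM in VQ-D1 replicates 1 to 4, 305, 351, 302 and 248 CPM in VQ-D2, and 402, 363, 347 and 292 CPM in VQ-D4. It measured 326, 319, 279.8 and 269 CPM in VQ-D5 and 215, 198, 255 and 275 CPM in t-VK12653, against 803, 598 and 861 CPM in Control. No library of a line reached the lowest Control library. The change was -0.63 in VQ-D1 (adjusted p = 0.000703, SE 0.14), -1.17 in VQ-D2 (adjusted p = 2.63e-06, SE 0.16), -1.02 in VQ-D4 (adjusted p = 1.09e-05, SE 0.16), -1.20 in VQ-D5 (adjusted p = 3.55e-07, SE 0.15) and -1.67 in t-VK12653 (adjusted p = 3.17e-09, SE 0.14), all as log2 fold changes. The call in the line sums was lost without Control replicate 1 (log2 fold change -0.88, adjusted p = 0.0976) and without Control replicate 3 (-0.81, adjusted p = 0.109). Of 7 tested relatives and adaptors, 3 were lower and 1 was higher in the line sums, with a median log2 fold change of -3.16. The 3 that fell were receptors of the SLAM family: the log2 fold change was -5.97 for Slamf1 (adjusted p = 0.00643, SE 0.91), -5.97 for Cd84 (adjusted p = 0.0062, SE 0.88) and -4.49 for Slamf6 (adjusted p = 0.00833, SE 0.76). The 1 that rose was another receptor of that family, Ly9 (log2 fold change 0.98, adjusted p = 0.0186, SE 0.22), named because the count is 1.

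CD38, the NAD-consuming ectoenzyme that daratumumab binds in human myeloma, was close to undetected in the lines. Cd38 had 2, 1, 0 and 2 reads in VQ-D1 replicates 1 to 4, 3, 1, 0 and 6 in VQ-D2, and 0, 0, 0 and 2 in VQ-D4. It had 9, 5, 7 and 5 reads in VQ-D5 and none in any t-VK12653 library, against 66, 46 and 91 reads in Control, or 21.4, 15.7 and 23.9 CPM. The highest library of any line was at 2.16 CPM. Over the summed libraries Cd38 was at least 114-fold lower in t-VK12653 than in Control, taking a count of 0 as at most 3 reads over the group (0.181 CPM). In VQ-D4, where 2 reads were counted, Control was 213-fold higher with a 95% counting interval of 58.2 to 1771. The fitted log2 fold changes were -6.24 in VQ-D1 (adjusted p = 2.13e-05, SE 0.98), -5.01 in VQ-D2 (adjusted p = 0.00133, SE 1.18) and -4.05 in VQ-D5 (adjusted p = 0.000179, SE 0.79), and the tests of VQ-D4 and t-VK12653 had adjusted p of 8.15e-05 and 6.4e-06. The difference among the lines had an adjusted p of 0.0345, and it was lost when any 1 of 5 libraries was left out: VQ-D2 replicate 1 (adjusted p = 0.0582), VQ-D5 replicate 1 (0.17), VQ-D5 replicate 2 (0.0676), t-VK12653 replicate 1 (0.0663) or t-VK12653 replicate 3 (0.0507). Among 6 tested ectoenzymes and receptors that handle NAD and adenosine outside the cell, 1 was lower in the line sums and none was higher, with a median log2 fold change of -0.15. That gene was Nt5e, which encodes CD73 and makes adenosine; it fell by 3.11 (adjusted p = 0.00912, SE 0.54).

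In Cd27 the levels were low throughout. It lay at 1.16 to 1.73 CPM in VQ-D1 and 0.869 to 2.13 in VQ-D2. It lay at 0.649 to 3.10 CPM in VQ-D4 and 1.57 to 2.64 in VQ-D5, and at 1.37 to 3.73 in t-VK12653, against 11.3, 12.3 and 4.73 CPM in Control. The lines overlapped one another and none overlapped Control. Cd27 fell by 2.42 on the log2 scale in VQ-D1 (adjusted p = 0.000169, SE 0.48), 2.66 in VQ-D2 (adjusted p = 0.000267, SE 0.55), 2.55 in VQ-D4 (adjusted p = 0.000425, SE 0.54), 2.32 in VQ-D5 (adjusted p = 0.000185, SE 0.47) and 1.64 in t-VK12653 (adjusted p = 0.00427, SE 0.46). Its call in the line sums was lost without Control replicate 1 (log2 fold change -2.22, adjusted p = 0.0649) and without Control replicate 2 (-2.19, adjusted p = 0.0622). Of 5 tested partners of CD27, Siva1, which binds its tail, was the 1 called: it rose by 1.48 (adjusted p = 0.0496, SE 0.44), and the median of the 5 was -0.24.

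FCRL5, an Fc receptor-like protein of B and plasma cells, followed the same direction at very low counts. Fcrl5 had 6, 0, 1 and 0 reads in VQ-D1 replicates 1 to 4, 0, 1, 0 and 0 in VQ-D2, and 3, 15, 1 and 3 in VQ-D4. It had 10, 3, 2 and 7 reads in VQ-D5 and 3, 2, 1 and 1 in t-VK12653, against 17, 24 and 21 in Control, or 5.51, 8.19 and 5.52 CPM. No library of a line reached the lowest Control level, and the highest was VQ-D5 replicate 1 at 2.40 CPM. The log2 fold change was -3.88 in VQ-D1 (adjusted p = 0.000593, SE 0.87), and -6.27 (adjusted p = 2.78e-05) without VQ-D1 replicate 1, which held 6 of the 7 reads and the most neutrophil RNA among the lines. In VQ-D2 a single read was counted, and Control was 148-fold higher with a 95% counting interval of 25.5 to 5926 (adjusted p = 0.00163). The liver library held 15 of the 22 reads of VQ-D4. It is also the only library of its recipient, so tissue and recipient cannot be told apart there. As the only liver library it has a tissue term of its own. The change in VQ-D4 was -2.96 (adjusted p = 0.016, SE 1.001) with it and -2.97 (adjusted p = 0.0163) without it. That call was lost without VQ-D4 replicate 1 (log2 fold change -1.62, adjusted p = 0.337). Fcrl5 was also lower in VQ-D5 (log2 fold change -2.25, adjusted p = 0.0167, SE 0.79), a call lost without VQ-D5 replicate 2 (-1.87, adjusted p = 0.0944) and in bone marrow libraries only (-2.03, adjusted p = 0.0626), and in t-VK12653 (-3.20, adjusted p = 0.00481, SE 0.91). In the line sums the call was lost without any 1 of the 3 Control libraries (adjusted p from 0.0949 to 0.113) and without the line VQ-D1 (adjusted p = 0.0624).

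GPRC5D, an orphan receptor of plasma cells and hair follicles and a target of bispecific antibodies, went the other way in detection. Gprc5d had no read in VQ-D1, in t-VK12653 or in Control, where a count of 0 allows up to 0.109, 0.181 and 0.305 CPM over the group. It had 0, 3, 0 and 0 reads in VQ-D2 replicates 1 to 4, 25, 0, 1 and 0 in VQ-D4, and 0, 10, 3 and 18 in VQ-D5. Nearly all reads of VQ-D4 were in its bone marrow library, at 3.15 CPM, and in VQ-D5 both tissues held reads, at 2.30 CPM in 1 of 2 bone marrow libraries and at 0.393 and 2.10 CPM in lymph node. Over the summed libraries the level was at least 4.13-fold higher in VQ-D4 and at least 4.10-fold higher in VQ-D5 than the limit that a count of 0 allows in Control. Gprc5d did not pass the filter on low counts and was not tested, and these bounds cover counting error only. Among 5 tested relatives, Gprc5a had 154 reads over the VQ lines and 0 in Control, at least 5.23-fold higher (adjusted p = 0.0475), and Fcrl1, an Fc receptor-like protein of B cells, fell by 4.65 (adjusted p = 0.0385, SE 1.28). Those were the 2 called in the line sums, and the median of the 5 was 1.10.

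The J chain transcript spanned the widest range of CPM among the 10 genes. Igj measured 618, 623, 829 and 613 CPM in VQ-D1 replicates 1 to 4 and 1343, 1390.3, 869 and 1216 CPM in VQ-D2. It measured 39.9, 14.5, 45.4 and 15.7 CPM in VQ-D4 and 1316, 628, 1147 and 198 CPM in VQ-D5. It measured 3581, 5438, 6083 and 10478 CPM in t-VK12653, against 32911, 29954 and 57526 CPM in Control. VQ-D4 lay below every other library, t-VK12653 lay between the VQ lines and Control, and none of these groups overlapped. The share of all counts was 0.00144% to 0.00439% in VQ-D4, against 3.27% to 5.78% in Control. Igj fell by 10.15 on the log2 scale in VQ-D4 (adjusted p = 4.56e-08, SE 0.78), by 5.98 in VQ-D1 (adjusted p = 4.31e-07, SE 0.58), by 5.36 in VQ-D5 (adjusted p = 1.43e-06, SE 0.60), by 4.88 in VQ-D2 (adjusted p = 8.07e-06, SE 0.62) and by 2.75 in t-VK12653 (adjusted p = 0.000485, SE 0.54). The lines differed from each other (adjusted p = 4.95e-07). VQ-D5 overlapped both VQ-D1 and VQ-D2, which did not overlap each other.

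**Figure D4:**
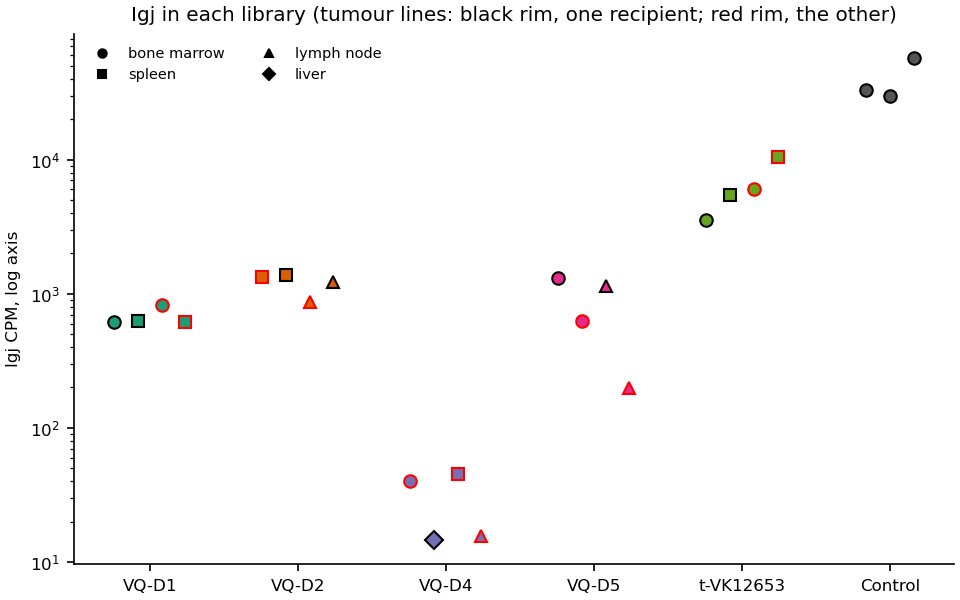
CPM of Igj in each library on a log axis, by group. Symbols give the tissue, and within each tumour line the rim colour separates its 2 recipients as numbered in the names of the deposited tables. The VQ-D4 libraries lie at 14.5 to 45.4 CPM and the Control libraries at 29954 to 57526 CPM.

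The other genes of immunoglobulin assembly and secretion did not share one direction in the line sums. There 1 of 9 was higher and 1 lower, with a median log2 fold change of -0.10. Pdia6, a disulphide isomerase of the endoplasmic reticulum, rose by 1.51 (adjusted p = 0.0111, SE 0.28). Txndc5, another of that family, fell by 1.32 (adjusted p = 0.0225, SE 0.31). In the fits of single lines, 3 of the 9 were higher and 3 lower in VQ-D1 and in VQ-D4. In VQ-D2 1 was higher and 5 lower, in VQ-D5 3 and 5, and in t-VK12653 0 and 6. The all-gene shares of these fits are given above. Mzb1, a chaperone of IgM and IgA assembly on the plasma cell list that was singled out after its values were seen, was at 309 ± 66.4, 350 ± 91.7, 11.4 ± 14.8, 609 ± 89.4 and 15.9 ± 1.78 CPM in VQ-D1 and VQ-D2, VQ-D4 and VQ-D5, and t-VK12653, against 618 ± 113 CPM in Control. It fell by 6.11 on the log2 scale in VQ-D4 (adjusted p = 1.61e-06, SE 0.66) and by 5.39 in t-VK12653 (adjusted p = 6.64e-07, SE 0.54), which among the 5 lines had the lowest and the highest Igj.

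Compared between genes on the per-length scale of deposited TPM, the order of levels differed by group. In VQ-D4 the highest mean levels were those of Sdc1 (707 TPM), Tnfrsf13b (556) and Tnfrsf13c (501), with Slamf7 at 186, Tnfrsf17 at 44.7 and Igj at 28.8 TPM. In VQ-D5 they were those of Igj (898 TPM), Sdc1 (282) and Tnfrsf17 (190.1), with Tnfrsf13c at 177, Slamf7 at 172 and Tnfrsf13b at 139.7 TPM. In Control, Igj stood at 46211 TPM, followed by Tnfrsf13b (968), Sdc1 (647), Slamf7 (459), Tnfrsf17 (332), Tnfrsf13c (325), Cd38 (16.4), Cd27 (14.6), Fcrl5 (4.50) and Gprc5d (0).

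The combined genotype was set against MYC alone by comparing the mean of the 4 VQ lines with t-VK12653, with 1 donor on the MYC side. Slamf7 was higher, by 0.66 on the log2 scale (adjusted p = 1.88e-05, SE 0.11), and Igj and Tnfrsf13b were lower, by -3.84 (adjusted p = 3.02e-07, SE 0.37) and -0.57 (adjusted p = 6.66e-05, SE 0.10). These were 3 of 9 genes, where 61.2% of all genes were called, 29.6% higher and 31.6% lower. Mean Tnfrsf13b was 188 and 199 CPM in VQ-D1 and VQ-D4 and 100.5 and 45.6 CPM in VQ-D2 and VQ-D5, against 186 CPM in t-VK12653, so the mean over the VQ lines does not describe each of them. In bone marrow libraries alone the Tnfrsf13b call was lost (log2 fold change -0.39, adjusted p = 0.116). Cd38, at 3.93 on that scale against a line without a read (adjusted p = 0.0577, SE 1.74), and Cd27, with -0.85 (adjusted p = 0.0522, SE 0.37), were close to the threshold. Both passed by DESeq2, at 2.81 for Cd38 (adjusted p = 0.0332) and -0.89 for Cd27 (adjusted p = 0.0476). Tnfrsf13c passed without t-VK12653 replicate 3 (0.38, adjusted p = 0.0461). With the replicate number as a block the Cd27 value was -0.96 (adjusted p = 0.043). The difference among all 5 lines passed for 7 of 9 genes, where 88.1% of all genes passed; Fcrl5 (adjusted p = 0.173) and Cd27 (adjusted p = 0.269) did not. Fcrl5 passed that test without VQ-D1 replicate 1 (adjusted p = 0.00847).

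The site from which cells were taken moved none of the 9 tested genes past the threshold in the filtered fit. Spleen against bone marrow gave 0 calls of 9 by edgeR, with 0 at an unadjusted p under 0.05 and 0 by DESeq2, where 0% of all genes were called by edgeR and 41 of them by DESeq2. The value nearest the threshold was that of Tnfrsf13c (log2 fold change -0.40, adjusted p = 0.781, SE 0.19). Lymph node against bone marrow gave 0 of 9 by edgeR, with 3 at an unadjusted p under 0.05 and 0 by DESeq2, where 0.0155% of all genes were called, 0.00777% in each direction, by edgeR, and 40 genes by DESeq2. Those 3 were Tnfrsf13b (log2 fold change -0.44, adjusted p = 0.409, SE 0.12), Tnfrsf13c (-0.52, adjusted p = 0.686, SE 0.23) and Slamf7 (-0.28, adjusted p = 0.647, SE 0.12). With no filter on low counts, Tnfrsf13c passed in spleen (-0.38, adjusted p = 0.0106) and in lymph node (-0.50, adjusted p = 0.00138), as did Tnfrsf13b (-0.41, adjusted p = 0.0387) and Igj (-0.51, adjusted p = 5.36e-07) in lymph node. In that setting 218 of all 21680 genes were called in spleen and 264 in lymph node.

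Other cell types were measured with marker lists, because cells other than plasma cells also carry CD38, CD27, SLAMF7 and TACI. In the line sums 13 of 13 neutrophil markers, 9 of 12 tested T and NK cell markers, 8 of 12 B cell markers, 6 of 11 monocyte and macrophage markers, 10 of 10 erythroid markers and 3 of 8 dendritic cell markers were lower, 1 dendritic cell marker was higher, and of 10 plasma cell markers 1 was higher and 1 lower. No liver marker passed the filter. Over all genes tested in the line sums, 9.27% were lower and 13.7% higher. In the fits of single lines, 5 of the 10 plasma cell markers were lower and 3 higher in VQ-D1, and 8 and 1 in VQ-D2. In VQ-D4 3 were lower and 2 higher, in VQ-D5 6 and 2, and in t-VK12653 4 and 2. The all-gene shares of these fits are given above. The plasma cell sum was 5489 to 7917 CPM in VQ-D2 and 8212 to 13225 CPM in the other lines, against 10041 to 16201 CPM in Control. The summed level of 13 T and NK cell markers was 3.46 to 7.63 CPM in VQ-D1 and 21.3 to 47.9 in VQ-D2, where Gzma made up most of it (mean 28.7 CPM, against 1.71 CPM in Control). It was 1.24 to 2.27 CPM in VQ-D4 and 3.83 to 7.99 in VQ-D5, and 1.37 to 4.30 in t-VK12653, against 60.4 to 97.2 CPM in Control. Cd3e, which defines T cells, averaged 0.094 to 0.746 CPM in the lines, against 7.74 CPM in Control. Ms4a1, which encodes the B cell marker CD20, averaged 0 to 1.33 CPM in the lines, with no read in t-VK12653, against 64.6 CPM in Control. The sum of the 12 B cell markers was instead 2438 to 3367 CPM in VQ-D1 and 112 to 247 in VQ-D2. It was 1625 to 2931 CPM in VQ-D4 and 74.4 to 90.1 in VQ-D5, and 3936 to 5603 in t-VK12653, against 3639 to 4511 CPM in Control, and in VQ-D1, VQ-D4, t-VK12653 and Control most of it was Cd74, the invariant chain of MHC class II. Between 2 and 7 of the 12 B cell markers and between 3 and 11 of the 13 T and NK cell markers had no read in a library of a line, against 0 and at most 1 in a Control library. Their part in the lower Cd38, Cd27, Fcrl5, Slamf7 and Tnfrsf13b of the lines was not tested. In sorted bulk samples, fewer cells of a type and less RNA per cell cannot be told apart.

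**Figure D5:**
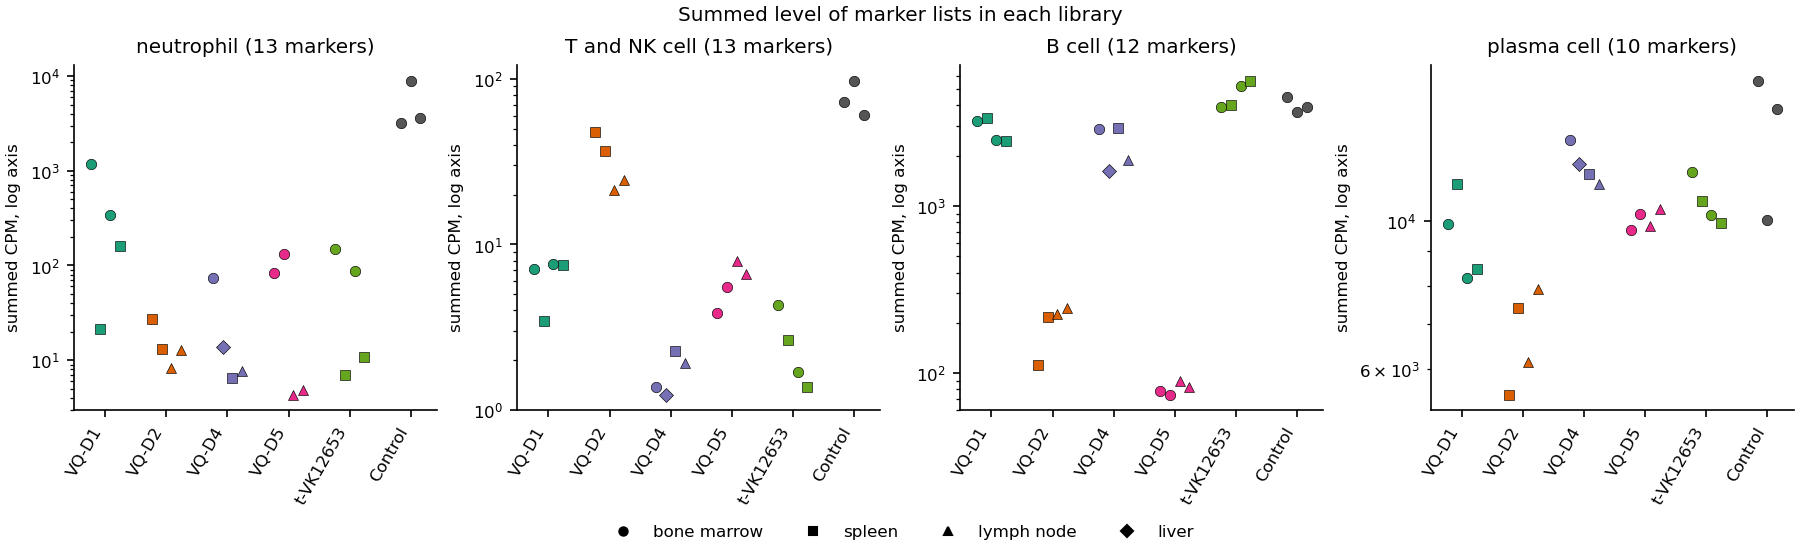
Summed CPM of 4 marker lists in each library, on log axes, by group. Symbols give the tissue. The neutrophil and the T and NK cell sums are highest in the 3 Control libraries, at 3178 to 8877 and at 60.4 to 97.2 CPM.

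For each tested gene the other genes with the most similar profile were ranked by Pearson's r of log2 CPM over the 23 libraries, as a description in which all values share the same libraries and groups. The highest values belonged to Tnfrsf13b, with Cnst (r = 0.964) and Fcrla (r = 0.962). Cd38 was followed most closely by Cd180 (r = 0.951) and 4930471G03Rik (r = 0.946), Sdc1 by Stac2 (r = 0.937) and Dcaf5 (r = 0.918), and Igj by Arhgap17 (r = 0.934) and Map3k1 (r = 0.920). Slamf7 was followed by Herc3 (r = 0.911) and Tigd2 (r = 0.905), Tnfrsf17 by Plxna3 (r = 0.906) and Rab1 (r = 0.871), Fcrl5 by Slc22a15 (r = 0.902) and Bahcc1 (r = 0.881), Tnfrsf13c by Fmnl3 (r = 0.886) and Mgmt (r = 0.859), and Cd27 by Luc7l2 (r = 0.869) and Btbd6 (r = 0.855).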

How the data were processed

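Each deposited table holds, per the file headers, 1 library with a count, an FPKM and a TPM for 24063 gene symbols. The whole-number counts were made by the authors, with STAR and featureCounts and the builds GRCm38 and mm10 per the submitters' processing notes; annotation, strand setting and versions are not stated there. The TPM values are per length and depth as deposited by the authors and were used only to set levels of different genes side by side. Per the labels' protocols, RNA was purified on small columns and libraries of total RNA that keep strand were made for very low inputs. Every pair of replicates differed by more than counting noise (chi-square per degree of freedom 4.57 to 22.3).

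In R 4.3.3, edgeR 4.0.16 was used with TMM scaling, filterByExpr (count minimum 10, total minimum 15), robust quasi-likelihood F-tests and Benjamini-Hochberg adjustment over all genes tested; an adjusted p under 0.05 was called. VQ against Control used counts summed per line; all other comparisons came from 1 fit of 23 libraries with group and tissue. Errors are SD of CPM or SE of log2 fold changes. A group count of 0 was bounded by 3 counts, and ratios of 1 to 3 reads have 95% counting intervals; neither covers more than counting error, because PCR copies were not collapsed by molecular identifiers. Likeness used log2 CPM with a prior count of 2. DESeq2 1.42.0 was an alternative. The fits were tested on simulated data.

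The 10 genes, the lists and the tests were chosen with earlier results of these data known. Besides all 10, up to 3 genes of each list of related genes are named, those called in VQ against Control with the largest change or else the 2 most abundant, and the 2 most similar genes per member. Recipient numbers come from the names of the deposited tables only. Values of some genes on these lists are not reported here.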

Additional observations from a re-analysis of the deposited data

Results flagged for a closer look

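Among 50 combinations of gene and line, 6 held a library whose gap to the nearest of the other 3 was large against the range of the line by Dixon's criterion, which chance passes in about 1 of 20 groups of normal values. Of these, 5 rest on low counts, 25 reads for Gprc5d in VQ-D4 replicate 1 and 1 to 6 reads in the other 4. Cd38 stood at 0.640 CPM in VQ-D4 replicate 4, the lymph node library, with no read in the other 3. Gprc5d stood at 0.435 CPM in VQ-D2 replicate 2, from spleen, and at 3.15 CPM in VQ-D4 replicate 1, from bone marrow. Fcrl5 stood at 1.48 CPM in VQ-D1 replicate 1 and at 0.145 CPM in VQ-D2 replicate 2. The other was Igj in VQ-D1 replicate 3, at 829 CPM, where the other 3 libraries lay between 613 and 623 CPM.

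The change from Control differed among the 5 lines, by edgeR's F-test with adjustment over all genes, for Tnfrsf13b (adjusted p = 1.63e-10), Igj (4.95e-07), Slamf7 (3.27e-06), Tnfrsf17 (5.99e-06), Sdc1 (1.06e-05), Tnfrsf13c (1.37e-05) and Cd38 (0.0345). Since 88.1% of all genes tested passed this test, these 7 of 9 do not set the genes apart from the rest.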

How the results depend on the processing

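Of 944 alternatives of called tests, none reversed the sign and 23 ended the call. Of 519 alternatives of tests that had not passed, 39 passed and 30 changed sign without passing. Of the 9 tested genes, 5 were called in VQ lines against control, and 2 to 6 when 1 library or line was left out. In VQ lines against t-VK12653 the number called was 3, and 5 with no filter on low counts and with DESeq2 (3 to 4 when 1 library was left out). Spleen against bone marrow gave 0, and 1 with no filter; lymph node against bone marrow gave 0, and 3 with no filter. All-gene calls in VQ lines against control were 3192, against 1148 to 1226 without 1 Control library, 2027 in bone marrow only and 7786 when the mean of the VQ lines was taken from the fit of all libraries. RLE size factors moved the all-gene median there by -0.115.

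Signs changed for values that were not called, and none was called with its sign changed; the cause was not tested. In bone marrow only, VQ lines against control gave 0.0238 for Sdc1 and 0.27 for Tnfrsf13c, and Tnfrsf13c was 0.0631 with both the liver library of VQ-D4 and replicate 1 of VQ-D1 left out, an alternative chosen after seeing the data. Leaving out 1 library or line gave -0.59 to 0.14 there. Sdc1 in VQ-D1 was -0.0503 with RLE and -0.0500 with DESeq2, -0.0342 with no tissue term, -0.0068 in bone marrow only and -0.14 to 0.17 with 1 library left out. Tnfrsf13c in t-VK12653 was 0.0016 with no filter, 0.27 in bone marrow only and -0.45 to 0.11 with 1 library left out. Tnfrsf13c in VQ lines against t-VK12653 was -0.0064 with RLE, -0.0084 with DESeq2, -0.16 with no tissue term, -0.13 with counts summed per recipient, -0.29 in bone marrow only and -0.14 to 0.38 with 1 library left out, where the highest, without t-VK12653 replicate 3, was called (adjusted p = 0.0461); Fcrl5 was 0.44 there in bone marrow only. The change of Sdc1 in the line sums was -0.58 to -0.09 with 1 library or line left out, and that of Fcrl5 in VQ lines against t-VK12653 was -0.90 to -0.02.

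The replicate numbers do not pair the samples: deviations of same-numbered libraries correlated at -0.376 to 0.321, with 16 of 55 pairs over 0.1, and 9 of 23 libraries correlated best with their own number. With the replicate block, 1 of 67 tests changed side, Cd27 in VQ lines against t-VK12653 (log2 fold change -0.96, adjusted p = 0.043), the numbers of genes called were 7, 8, 8, 7 and 7 against Control for VQ-D1 and VQ-D2, VQ-D4 and VQ-D5, and t-VK12653, 4 against t-VK12653, and 7 among the lines. Over all genes it called 24 in spleen and 5 in lymph node against bone marrow, where the fit without it called 0 and 2. No paired fit was made of the line sums, which carry no number.

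Depth limits the least abundant genes. Cd38, Fcrl5, Cd27 and Gprc5d had few reads in the lines, and VQ-D2 could not be fitted in bone marrow only, since it has no such library.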

Other observations

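Numbers in the names of the deposited tables give 2 recipients per line, and VQ-D1, VQ-D2, VQ-D5 and t-VK12653 have 2 libraries from each. For Tnfrsf17 the 2 libraries of a recipient stood together in 4 of these 4 lines: both libraries of either recipient lay above both of the other, whatever their tissue. In VQ-D1 they were 7.65 and 7.91 CPM in bone marrow and spleen of the first recipient and 2.51 and 1.95 CPM in those of the second. In VQ-D5 they were 76.4 and 80.2 CPM in bone marrow and lymph node of the second recipient and 53.2 and 59.3 CPM in those of the first. The same held in 2 of 4 lines for Sdc1, Tnfrsf13b, Tnfrsf13c, Slamf7 and Igj, in 1 for Gprc5d and Fcrl5 and in none for Cd38 and Cd27. These orders were seen after the values were known, with 2 recipients per line, and were not tested. Tnfrsf17 had the highest of these counts among the genes examined. The share of all genes with such an order is not given here, and with 2 libraries per recipient it can also arise by chance. The counts are therefore a description and do not show a difference between recipients. In t-VK12653 Igj was 10478 and 6083 CPM in spleen and bone marrow of the second recipient and 5438 and 3581 CPM in those of the first.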
